A study of Rattus norvegicus with 5 samples.

Results

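Macrophages in these sensory ganglion cultures were described through 44 genes of macrophage identity, growth factor signalling, scavenging and activation. The genes were chosen as a named list of symbols, and all 44 were found among the 33014 genes of the deposited gene table. RNA came from 5 libraries, replicates 1 to 5, of dissociated dorsal root ganglia of wild-type (WT) Sprague Dawley rats at postnatal day 10. Cells of ganglia pooled from a litter of 10 pups were seeded at 5000 per well, given 1XPBS, a saline vehicle, after 1 day and harvested after 8 days, with 3 wells combined per library. All libraries share genotype, age, vehicle and culture time, so the design holds no contrast between conditions. The labels name no cell sort, so the RNA is that of every cell in the wells, and the culture is a model of ganglion macrophages only as far as they survived dissociation and plating. Nothing in the labels says that the libraries came from separate preparations. The p-values therefore apply to these 5 libraries only, and differences between the libraries may be technical.

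Ganglia hold resident macrophages that lie around neuron cell bodies and along axons. They survive on signals through the CSF1 receptor, clear debris through scavenger and phagocytic receptors, sense immune complexes through Fc receptors, and change state after nerve injury. Several of the listed genes are restricted to myeloid cells in a ganglion, while others, such as Axl, Mertk, Spp1, Gpnmb, Csf1 and Cyba, are also expressed by glia, fibroblasts or neurons.

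Libraries held between 21596608 and 27913098 estimated reads. Levels are TPM, a relative abundance corrected for transcript length and for the total of each library, so the levels of different genes can be set side by side. Values after ± are SD over 5 libraries, and values in series run from replicate 1 to replicate 5. Ribosomal RNA genes differed between libraries. Rn5-8s was at 182, 500.0, 244, 124 and 38.4 TPM and Rn28s at 392, 749, 658, 509.7 and 346 TPM, both highest in replicate 2, and Rn18s was at 293, 572, 576, 368 and 308 TPM, highest in replicates 2 and 3.

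Of the 44 genes, 41 were detected, meaning at least 1 TPM in every library, against 41.3% of all genes in the table. Their mean levels ran from Gpnmb at 573 ± 87.4 TPM down to Csf3r at 2.48 ± 0.530 TPM. The 3 undetected genes were the scavenger receptor gene Marco, the inducible nitric oxide synthase gene Nos2 and the apoptotic cell receptor gene Timd4. The summed level of all 44 was 2565, 2115.5, 2877, 2861 and 3031 TPM, lowest in replicate 2 and highest in replicate 5.

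**Figure D1:**
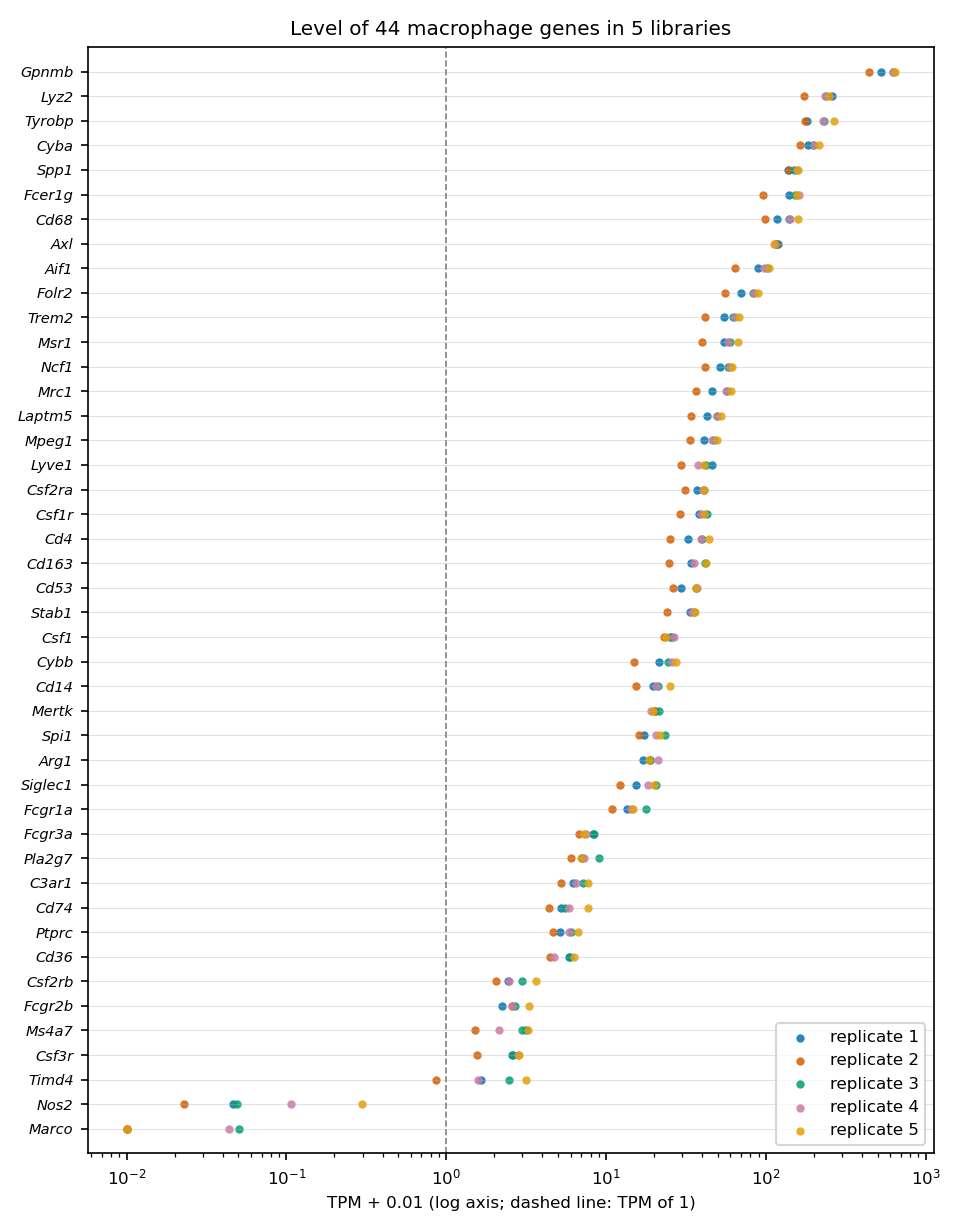
Level of each of the 44 genes in the 5 libraries, ordered by mean; the horizontal axis is TPM + 0.01 on a log scale and each point is a library. Gpnmb is highest at 442 to 646 TPM, Marco and Nos2 lie left of the dashed line at 1 TPM, and the point of replicate 2 is the lowest in most rows.

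The identity genes of macrophages were all present. Lyz2, which encodes lysozyme, was at 259.9, 174, 238, 234 and 248 TPM. Cd68, a lysosomal membrane protein gene of phagocytes, was at 118, 98.9, 140.4, 142 and 158 TPM. Aif1, which encodes the cytoskeletal protein IBA1, was at 88.7, 64.0, 102, 97.3 and 105 TPM. In all 3 genes replicate 2 was the lowest library. Cd68 exceeded Aif1 by 1.44-fold on average (1.33 to 1.54-fold over libraries), and Lyz2 exceeded Cd68 by 1.76-fold (1.57 to 2.20-fold). Both held in 5 of 5 libraries, with p = 0.0625 in an exact two-sided sign-flip permutation test, the smallest p that 5 libraries can give. This test can therefore not pass 0.05 with 5 libraries, whatever the spread of a ratio. Lysozyme genes are similar in sequence, so the division of reads to Lyz2 is uncertain.

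Other leukocyte identity genes were lower. Mpeg1, which encodes the pore-forming protein perforin-2, was at 43.5 ± 6.39 TPM. Laptm5, a lysosomal protein gene of blood-derived cells, was at 45.6 ± 7.41 TPM, and the leukocyte tetraspanin gene Cd53 at 33.2 ± 5.02 TPM. Cd14, the co-receptor for bacterial lipopolysaccharide, was at 19.6, 15.3, 21.1, 20.6 and 24.99 TPM. Spi1 encodes PU.1, the transcription factor that specifies the myeloid lineage, and was at 17.3, 16.01, 23.3, 20.5 and 21.7 TPM. Ptprc (CD45), the surface phosphatase of leukocytes, was at 5.68 ± 0.809 TPM, and the complement receptor gene C3ar1 at 6.55 ± 0.943 TPM. Ms4a7, a membrane protein gene of macrophages, was the lowest of the 16 core identity genes at 3.15, 1.51, 2.97, 2.14 and 3.23 TPM, with replicate 2 again lowest. No transcript of Ms4a7 could be named, so it has no read count here.

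Among growth factor genes, both the receptor and its ligands were expressed. Csf1r, the receptor on which macrophage survival depends, was at 38.1, 29.0, 42.7, 39.4 and 40.9 TPM. Its ligand gene Csf1 was at 25.2, 22.9, 26.0, 26.6 and 23.7 TPM, a narrower range. Csf1r exceeded Csf1 by 1.52-fold (1.27 to 1.73-fold over libraries, higher in 5 of 5; exact sign-flip p = 0.0625). The smallest ratio was that of replicate 2. Il34, the alternative ligand of the same receptor, was at 41.0 ± 7.62 TPM, above Csf1 by 1.62-fold in TPM and in 5 of 5 libraries. Without length normalization Csf1 was the higher of the pair, by a log2 ratio of 0.59, a setting in which transcript length enters the ratio.

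The granulocyte-macrophage receptor genes differed by subunit. Csf2ra, the ligand-binding chain, was at 36.9, 31.2, 41.0, 40.7 and 41.3 TPM, and Csf2rb, the signalling chain, at 2.44, 2.05, 2.98, 2.45 and 3.65 TPM. Csf2ra thus lay 13.8-fold above Csf2rb in 5 of 5 libraries. Csf1r and Csf2ra did not differ beyond the spread, with a log2 ratio of -0.01 ± 0.07 (SD, n = 5; exact sign-flip p = 0.6875) and Csf1r the higher in 2 libraries. Csf3r, the granulocyte growth factor receptor, was at 2.56, 1.55, 2.60, 2.81 and 2.85 TPM and lay 14.98-fold below Csf1r. Of the matching ligand genes, Csf2 was listed at 0 in every library and Csf3 was at 0.140 ± 0.217 TPM.

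Adaptor and immunoglobulin receptor genes formed a steep order. Tyrobp (DAP12), the signalling adaptor of TREM2 and other myeloid receptors, was at 181, 175, 231, 229 and 268 TPM. Fcer1g, the adaptor shared by Fc receptors, was at 139.9, 96.6, 151, 161 and 158 TPM. Tyrobp exceeded Fcer1g by 1.54-fold (1.29 to 1.81-fold). Trem2, a lipid-sensing receptor, was at 54.6, 41.6, 62.4, 64.3 and 68.4 TPM, 3.73-fold below Tyrobp. These ratios had the same sign in 5 of 5 libraries (exact sign-flip p = 0.0625 each). Sums of named transcripts, which leave out unnamed ones, put Trem2 at 50.5 TPM.

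The 3 Fc receptor genes on the list were lower than Fcer1g. Fcgr1a, the high-affinity receptor for IgG, was at 13.5, 11.0, 17.7, 14.3 and 14.6 TPM. Fcgr3a, a low-affinity activating receptor, was at 8.29, 6.74, 8.45, 7.44 and 7.30 TPM, and Fcgr2b, the inhibitory receptor, at 2.23, 2.58, 2.70, 2.56 and 3.31 TPM. Fcgr1a exceeded Fcgr3a by 1.84-fold and Fcgr2b by 5.14-fold in 5 of 5 libraries. Fcgr2b and Fcgr3a belong to a family with similar sequences, so the division of reads among them is uncertain. The MHC class II chaperone gene Cd74 was at 5.22, 4.399, 5.51, 5.84 and 7.75 TPM. Cd4, which rat macrophages are known to express, was at 32.5, 25.2, 39.7, 39.5 and 44.01 TPM, 6.20-fold above Cd74. Replicate 5 had the highest and replicate 2 the lowest level of both genes.

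Scavenger and resident macrophage genes were present apart from Marco and Timd4. Folr2, a folate receptor of resident macrophages, was the highest at 70.1, 55.4, 82.9, 84.4 and 89.6 TPM. Msr1, a class A scavenger receptor, was at 54.8, 39.6, 59.7, 57.6 and 67.3 TPM in the gene table. Its named transcripts summed to 2.18 TPM, so most of that level rests on unnamed transcripts. The mannose receptor gene Mrc1 (CD206) was at 45.8, 36.4, 57.4, 56.5 and 60.3 TPM and the haemoglobin scavenger receptor gene Cd163 at 34.0, 24.7, 41.4, 35.7 and 42.2 TPM. Mrc1 exceeded Cd163 by 1.44-fold (1.35 to 1.58-fold, 5 of 5 libraries).

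Lyve1, a hyaluronan receptor of perivascular macrophages and lymphatic vessels, was at 46.1, 29.5, 42.0, 37.5 and 41.1 TPM, and unlike most members it was highest in replicate 1. The clearance receptor gene Stab1 was at 33.3, 24.1, 35.7, 34.4 and 35.9 TPM. Stab1 overlaps Nt5dc2 in the rat annotation, and the strand setting is not known, so its level is uncertain. Siglec1 (CD169), a sialic acid receptor, was at 15.5, 12.3, 20.7, 18.3 and 20.1 TPM. Cd36, a fatty acid and oxidized lipid receptor, was the lowest detected scavenger gene at 5.85, 4.43, 5.97, 4.74 and 6.30 TPM. In TPM, Folr2 lay 1.94-fold above Lyve1 and Stab1 1.199-fold below Lyve1. Both orders turned without length normalization, at log2 ratios of -0.80 for Folr2 over Lyve1 and 1.09 for Stab1 over Lyve1.

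Timd4, a phosphatidylserine receptor of long-lived resident macrophages, was at 1.64, 0.855, 2.48, 1.57 and 3.13 TPM and missed detection through replicate 2. It lay 20.8-fold below Lyve1. Marco had 2 estimated reads in all, 1 in replicate 3 and 1 in replicate 4. That corresponds to 0.0148 TPM, with an exact Poisson 95% interval of 0.00179 to 0.0533 TPM that covers counting error only.

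The oxidase genes were all detected. Cyba (p22phox), the membrane subunit that other cell types share, was at 184, 164, 198, 202 and 216 TPM. Cybb (gp91phox), its partner in the phagocyte NADPH oxidase, was at 21.3, 15.04, 24.3, 26.0 and 27.3 TPM, and Ncf1 (p47phox), the cytosolic organizer, at 51.5, 41.7, 57.7, 59.9 and 61.5 TPM. Cyba lay 8.56-fold above Cybb, and the ratio was highest in replicate 2 at 10.9-fold, with the other libraries reaching down to 7.74-fold. Ncf1 exceeded Cybb by 2.41-fold. Both ratios had the same direction in 5 of 5 libraries (exact sign-flip p = 0.0625 each).

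Of the enzymes that compete for arginine, Arg1 was detected and Nos2 was not. Arg1, arginase 1, was at 17.0, 18.7, 18.9, 21.0 and 18.6 TPM, lowest in replicate 1. Nos2 was at 0.0365, 0.0130, 0.0389, 0.0971 and 0.287 TPM, from 3, 1, 3, 9 and 18 estimated reads. Its mean of 0.0944 TPM rested on replicate 5, without which it was 0.0464 TPM. Nos2 was thus far below Arg1 in every library, with its highest level in replicate 5. Mrc1 exceeded Arg1 by 2.67-fold (1.94 to 3.23-fold, 5 of 5 libraries), and the smallest ratio was again that of replicate 2.

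Receptors that bind apoptotic cells through bridging proteins showed little spread. Axl was at 119, 118, 115, 114 and 113 TPM and Mertk at 20.3, 20.3, 21.5, 19.2 and 19.7 TPM, and neither was lowest in replicate 2. Axl exceeded Mertk by 5.71-fold (5.35 to 5.88-fold, 5 of 5 libraries). The bridging ligand gene Gas6, at 93.3 ± 9.75 TPM, lay 1.24-fold below Axl. Sums of named transcripts put Axl at 91.9 TPM. With such sums the log2 ratio of Gas6 to Axl moved from -0.32 to -0.915, and that of Axl to Mertk from 2.51 to 2.18. The third receptor of the family, Tyro3, was at 12.9 ± 0.853 TPM, and the second ligand, Pros1, at 52.4 ± 0.622 TPM.

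Genes of lipid-laden and injury-associated macrophages were led by Gpnmb, a lysosomal glycoprotein gene that ranked 237 among the 13635 detected genes. It was at 525, 442, 626, 628 and 646 TPM. Spp1 (osteopontin), a secreted glycoprotein that Schwann cells and neurons also make, was at 139, 139, 149, 157 and 159 TPM, 3.83-fold below Gpnmb. Replicate 2 was the lowest library for Gpnmb, while for Spp1 replicates 1 and 2 were alike. Pla2g7, which encodes an enzyme that degrades platelet-activating factor, was at 7.06, 6.002, 9.03, 7.25 and 7.002 TPM.

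**Figure D2:**
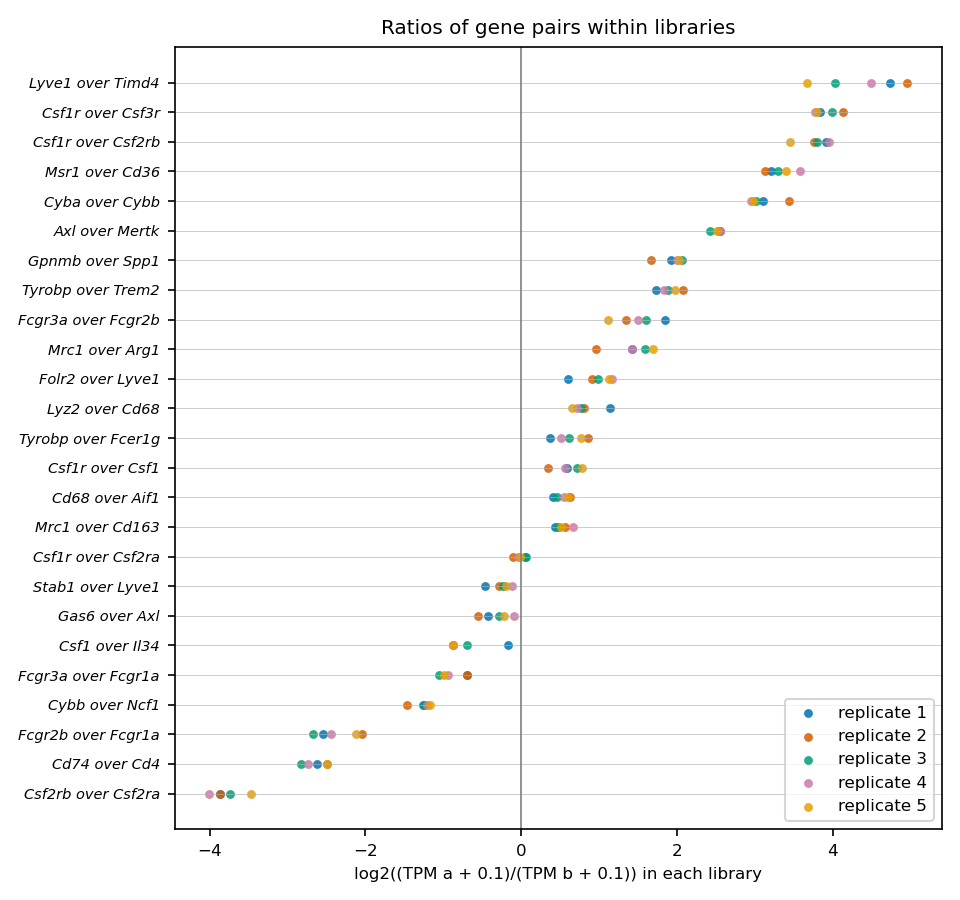
Ratio of each gene pair within each library, as log2((TPM a + 0.1)/(TPM b + 0.1)), each point a library; pairs with Marco, Nos2 or Ccr2 are left out for their few reads. Csf1r over Csf2ra straddles 0 with a mean of -0.01, and every other pair shown keeps its sign in 5 of 5 libraries.

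Most of the members moved together between libraries. Of the 41 detected members, 36 had their lowest level in replicate 2, against 16.9% of all detected genes. Among the 16 core identity genes it was 16 of 16, and among the other detected members 20 of 25. The core genes were Cd68, Aif1, Csf1r, Ptprc, Cd14, Tyrobp, Fcer1g, Laptm5, Trem2, C3ar1, Cd53, Cybb, Lyz2, Spi1, Mpeg1 and Ms4a7. They were chosen with earlier results of these data known, so their count is no independent support. Replicate 5 was the highest library for 27 of the 41, against 16.5% of all detected genes. Replicate 2 was singled out after its values were seen, so these counts are a description with no test. Fewer macrophages and less RNA per macrophage cannot be told apart in bulk RNA.

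In replicate 2 the core genes stood at 52.5% (Ms4a7) to 78.0% (Ptprc) of the mean of the other 4 libraries, with a median of 71.1%. Ms4a7 was at only 1.51 TPM in replicate 2 and has no read count, and the next lowest core gene was Cybb at 60.8%. Over all detected members 33 of 41 were at or below 80% in replicate 2, against 4.31% of all detected genes. The median over all detected genes was 101% there. The exceptions among members were Cyba at 82.2%, Fcgr3a at 85.6%, Csf1 at 90.2%, Spp1 at 92.0%, Fcgr2b at 95.6%, Arg1 at 99.1%, Mertk at 100.5% and Axl at 102%.

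**Figure D3:**
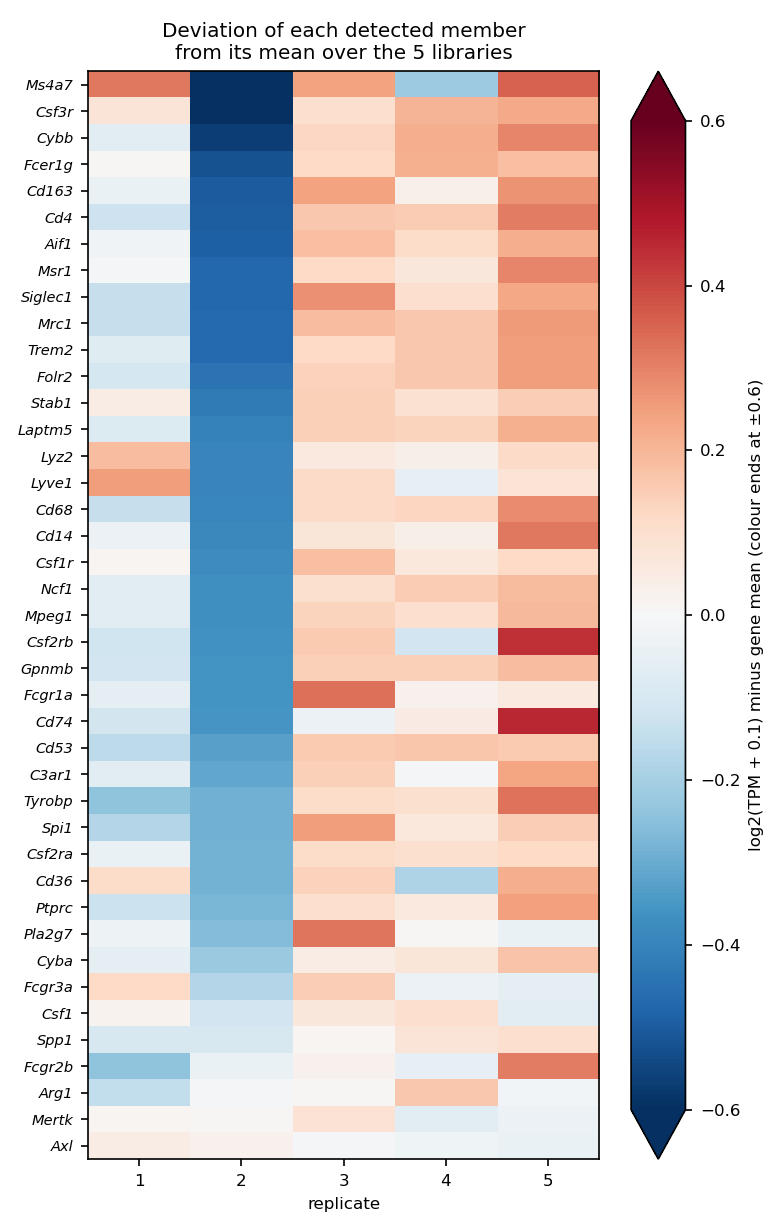
Deviation of each of the 41 detected members in each library, as log2(TPM + 0.1) minus the gene's mean over 5 libraries, ordered by replicate 2; blue is lower and red higher. The column of replicate 2 is blue from Ms4a7 down to Csf1, and near white for Arg1, Mertk and Axl.

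Counts of reads allowed a test of whether a gene differed between libraries by more than counting noise. The test was edgeR's likelihood ratio test with library as a factor and no variance beyond Poisson, on 8985 genes with enough reads, and 35 members were among them. At an adjusted p under 0.05, 31 of the 35 members were called, against 31.5% of all genes fitted. Those not called were Arg1 (edgeR adjusted p = 0.106), Mertk (adjusted p = 0.479), Fcgr3a (adjusted p = 0.563) and Fcgr2b (adjusted p = 0.633). With a highest library at least 1.5-fold above the lowest as well, 22 of 35 members were called, against 5.12% of all genes.

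The clearest of these by p was Mrc1, at 208, 163, 258, 259 and 273 normalized CPM, reads scaled to library size, a 1.67-fold range (edgeR adjusted p = 1.35e-128). The widest ranges were those of Csf3r at 1.92-fold (adjusted p = 0.0004), Cybb at 1.85-fold (adjusted p = 5.39e-19) and Csf2rb at 1.81-fold (adjusted p = 0.000106). Several members lay at the limit of 1.5-fold, with Csf1r at 1.501, Mpeg1 at 1.502 and Ncf1 at 1.502 just inside, and Spi1 at 1.499 and Gpnmb at 1.482 just outside. Csf1 had a range of 1.16-fold and Spp1 of 1.17-fold, with adjusted p of 0.00701 and 1.31e-09 in edgeR's test. With edgeR's trended variance in place of Poisson, 17 of 35 members were called, against 1.42% of all genes. Replicate 2 carried this result: without it 0 of 35 members passed both limits, against 2.88% of all genes. Without replicate 5 it was 13 of 35. The share of all genes was not worked out for that setting, so nothing is read from this count. In edgeR's fit without replicate 2, 22 of 35 members had an adjusted p under 0.05 with no limit on fold, against 24.6% of all genes. In the same fit 28 of 35 members had an unadjusted p under 0.05, against 35.9% of all genes. The widest range of a member there was 1.49-fold.

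**Figure D4:**
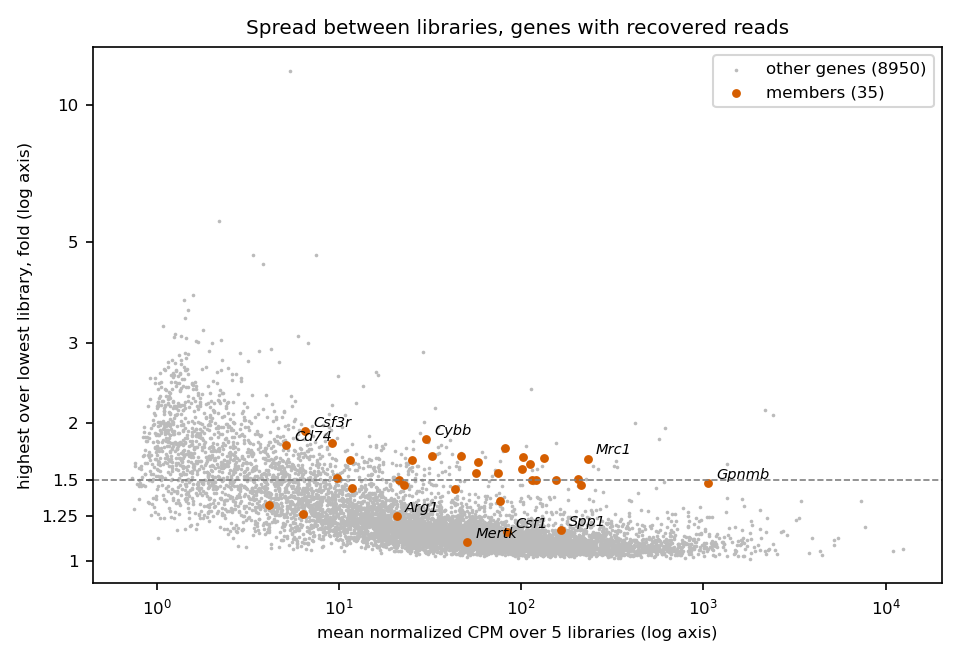
Range between libraries, as highest over lowest normalized CPM, against mean CPM for 8985 genes; both axes are logarithmic, orange points are the 35 members with counts and the dashed line marks 1.5-fold. Mrc1 at 1.67-fold and Cybb at 1.85-fold lie above most genes of like level, and Mertk at 1.097-fold lies among them.

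The summed neuron, Schwann cell and fibroblast markers were not lowest in replicate 2. Of 8 fibroblast genes 2 were lowest there, against 16.9% of all detected genes. These were Dcn at 89.9% and Lum at 87.7% of the other libraries' mean. The summed level of 10 neuronal genes was 8603, 9018, 8613, 8691 and 8712 TPM, and that of 8 fibroblast genes lay between 2217 and 2270 TPM. The 10 Schwann cell genes summed to 7060, 8132, 8083, 7932 and 7849 TPM, lowest in replicate 1. The macrophage core summed to 1066, 830.2, 1187, 1181 and 1276 TPM. Its median deviation (log2) was -0.06, -0.39, 0.13, 0.10 and 0.23, a range of 0.62 between libraries. Smooth muscle and mural genes had a range of 0.66 in another order, with replicate 1 highest and replicate 5 lowest. Satellite glia genes summed to 8521 and 8431 TPM in replicates 1 and 2 and to between 10254 and 11012 TPM in the others. Apoe, which macrophages also express, made up most of that sum. Of the 6 genes 3 were lowest in replicate 2, against 16.9% of all detected genes. These were Apoe at 83.1%, Glul at 88.4% and Fabp7 at 93.6% of the other libraries' mean. Cadm2 was at 99.6%, Cdh19 at 106% and Kcnj10 at 115% there. Ribosomal RNA was also high in replicate 2, with Rn5-8s at 340.1%, Rn28s at 157% and Rn18s at 148% of the other libraries' mean. This was not particular to replicate 2 in every gene. Rn18s was at 572 TPM in replicate 2 and 576 TPM in replicate 3, and Rn28s at 749 and 658 TPM. The part of other cells, depth or RNA quality in the result was not tested.

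**Figure D5:**
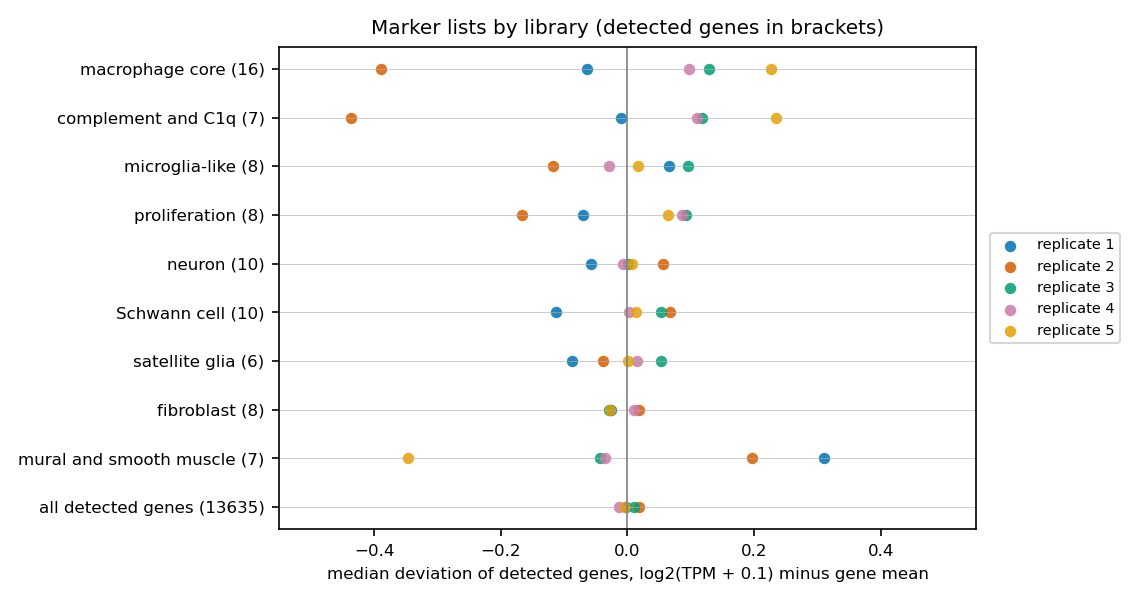
Median deviation of the detected genes of each marker list in each library, log2(TPM + 0.1) minus the gene mean, each point a library. The macrophage core spans -0.39 in replicate 2 to 0.23 in replicate 5, while neuron, Schwann cell and fibroblast lists stay within -0.11 to 0.07.

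Related gene lists are given by how many of their genes were detected, which does not show the cell of origin. All 12 myeloid transcription factor genes were detected, led by Cebpb at 83.8 ± 3.34 TPM and Maf at 80.05 ± 6.35 TPM. Of these 12 genes 6 were lowest in replicate 2, against 16.9% of all detected genes. Of 7 complement genes, all detected, 6 were lowest there, with C1qa, C1qc and C1qb at 363, 342 and 262 TPM in that library, 67.7%, 66.9% and 68.4% of the other libraries' mean. Of 10 microglia-like genes 8 were detected, Olfml3 and P2ry12 (17.3 ± 2.17 TPM) among them, while P2ry13 and the microglial factor gene Sall1 (0.756 ± 0.123 TPM) were not. The fractalkine receptor gene Cx3cr1 was at 2.42 ± 0.616 TPM, and the monocyte chemokine receptor gene Ccr2 at 0.0497 ± 0.0730 TPM. Monocyte genes were detected for 5 of 8, led by S100a4, Vcan and Clec4a3. In replicate 2, S100a4 was at 103%, Vcan at 120.3% and Clec4a3 at 92.6% of the other libraries' mean. The remaining detected genes were Itgam at 78.6% and Plac8 at 42.1%, each lowest in that library. Plac8 was near the detection limit, at 2.23, 1.19, 2.08, 4.48 and 2.53 TPM.

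Activation genes are given beside the 41.3% detected among all genes, and the lists were not tested against each other. Of 14 inflammatory genes 6 were detected, Ccl2 at 61.1 ± 7.78 TPM, Cd86 at 13.8 ± 2.33 TPM and Il6 at 4.61 ± 0.974 TPM leading, while Il1b was at 0.444 ± 0.444 TPM and Il12b and Cxcl9 were listed at 0. Bulk RNA does not show which cells made the detected inflammatory transcripts. Of 13 genes of alternative activation 7 were detected, led by Socs3, Egr2 and Tgfb1. These 3 have sources other than macrophages in a ganglion, and the macrophage lectin gene Clec10a was at 30.8 ± 6.28 TPM, with Ccl17 listed at 0 and Ccl22 at 0.0281 ± 0.0418 TPM. Partners of phagocytosis were detected for 8 of 10, led by Cd47, Itgav and Mfge8, without Stab2 and Havcr1.

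Lists for other blood cell types had between 0 and 4 detected genes each. None of 11 T, B and NK cell genes was detected, and Cd3d, Cd3e and Nkg7 were listed at 0, with the summed level at 1.38 to 3.46 TPM over libraries. Of 9 neutrophil genes Mmp8 and S100a8 were detected, with Elane listed at 0 and Mpo at 0.00672 ± 0.0150 TPM, and the sum ran from 8.97 to 19.5 TPM. Of 8 mast cell genes Kit and Hdc were detected, while Fcer1a and Tpsb2 were listed at 0. Of 9 dendritic cell genes Fscn1, Batf3 and Zbtb46 were detected, at 102, 25.2 and 4.88 TPM, while Xcr1 and Ccr7 were at 0.0240 and 0.0304 TPM. All 8 proliferation genes were detected, led by Pcna, Cdk1 and Birc5, with a sum between 129.8 and 151 TPM. Of these 8 genes 5 were lowest in replicate 2, against 16.9% of all detected genes. From the list for red cells and platelets 4 of 8 passed, with Pf4, a chemokine that macrophages also make, at the top and at 67.7% of the other libraries' mean in replicate 2.

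Promoter sequences from RefSeq (rat build GRCr8) matched 31 of the 44 members. Windows of 250 bases before the annotated start were searched on both strands for GAGGAAG, a purine-rich motif of the kind bound by PU.1, the product of Spi1. It was present in 13 of 31 members and in 10.2% of all 33469 promoters. The shorter GAGGAA, which it contains, was in 19 of 31 and 23.3%. GGAAGT was in 11 of 31 and 19.2%, AGGAAGT in 7 of 31 and 7.08%, and the bare core GGAA, which all of these contain, in 30 of 31 and 93.2%. The motif was in 5 of 12 core promoters and 8 of 19 promoters of other members. These motifs were chosen with the members known, and a match is a description of the letters, not a bound site. Whether the motif goes with the level in replicate 2 was not tested. Members whose window lacked GAGGAAG included Cd163 at 64.5%, Cd68 at 70.8% and Mertk at 100.5% of the other libraries' mean in replicate 2. The 13 with it included Mrc1, Laptm5 and Trem2, at 66.2%, 70.1% and 66.6% by the same measure, and also Axl, at 102%. These promoters are shown 5′ to 3′ on the strand of the gene, as examples from genes that were low in replicate 2 and 1 that was not, with the motif in capitals, where it reads CTTCCTC because it lies on the other strand.
Mrc1 (chr17:82157475-82157724, + strand): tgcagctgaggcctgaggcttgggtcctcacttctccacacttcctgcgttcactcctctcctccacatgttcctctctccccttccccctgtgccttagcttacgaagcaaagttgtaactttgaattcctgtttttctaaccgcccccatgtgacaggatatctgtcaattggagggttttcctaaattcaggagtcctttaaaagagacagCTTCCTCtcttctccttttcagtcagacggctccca
Laptm5 (chr5:148371630-148371879, + strand): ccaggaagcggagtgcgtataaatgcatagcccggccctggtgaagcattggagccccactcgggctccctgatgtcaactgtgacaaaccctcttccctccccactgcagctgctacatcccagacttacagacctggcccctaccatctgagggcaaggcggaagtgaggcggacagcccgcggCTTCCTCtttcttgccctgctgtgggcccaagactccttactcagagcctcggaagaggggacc
Trem2 (chr9:20151780-20152029, - strand): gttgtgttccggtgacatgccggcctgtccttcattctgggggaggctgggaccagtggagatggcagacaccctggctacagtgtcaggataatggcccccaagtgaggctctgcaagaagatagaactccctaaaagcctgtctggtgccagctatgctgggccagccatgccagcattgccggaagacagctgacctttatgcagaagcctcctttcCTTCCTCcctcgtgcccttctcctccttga
Axl (chr1:90424010-90424259, - strand): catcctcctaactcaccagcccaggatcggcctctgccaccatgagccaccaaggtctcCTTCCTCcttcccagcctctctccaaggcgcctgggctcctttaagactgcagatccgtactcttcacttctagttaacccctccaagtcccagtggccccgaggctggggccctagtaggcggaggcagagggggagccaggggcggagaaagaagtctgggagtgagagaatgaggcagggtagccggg

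In Mrc1 the motif began 36 bases before the start, in Laptm5 64, in Trem2 30 and in Axl 191.

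At the level of transcripts, the share of the leading named form is an estimate of the quantification model. Of 8 named Ptprc transcripts, the form of 4670 bases held 97.4% of the summed TPM (91.7% to 100% over libraries), near the shortest length of 4662 bases. Ptprc exons that are spliced out in short forms are known to vary by leukocyte type. For Csf1r the form of 3794 bases held 88.2% (80.2% to 92.6%), and for Cd4 the form of 3192 bases held 70.4% (69.1% to 71.3%). Csf1 was divided among forms of 4292, 3975 and 4319 bases at 34.6%, 29.6% and 26.8%. The 2 named forms of Tyrobp, of 545 and 588 bases, held 74.98% and 25.02%.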

How the data were processed

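RNA-seq was done on 5 libraries of 1 group, with TRIzol extraction and a poly-A selection kit per the labels' protocols. Per the submitters' processing notes, Trim Galore 0.6.6, cutadapt 2.8 and Salmon 1.5.1 were used with build mRatBN7.2; no strand or multi-mapping setting was found in those notes. The deposited gene table holds TPM, and the authors' Salmon files hold TPM and an estimated count of reads per transcript, per the file headers. Members and lists were chosen with earlier results of these data known.

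All values come from the gene table unless stated. A RefSeq table of GRCr8 gave gene symbols for 67330 of 98811 transcripts (68.1%). Reads were summed, and rounded to whole numbers, for 20641 genes whose transcript TPM came within 10% of the gene table in every library, 37 members included. These held 67.7% to 68.0% of reads. At 1 TPM, a transcript of 1 kb had 13.3 to 17.4 reads.

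edgeR 4.0.16 (TMM factors, filterByExpr, Poisson likelihood ratio test on library, Benjamini-Hochberg over all genes) was checked on simulated data. Pair ratios (29 pairs) are log2((TPM a + 0.1)/(TPM b + 0.1)) with an exact sign-flip test; no adjusted value is given. Alternatives covered DESeq2 1.42.0 size factors, no filter, trended variance, thresholds, pseudocounts, transcript sums, CPM and leaving out each library; the count without replicate 2 with no limit on fold and the Nos2 mean without replicate 5 were added after seeing the data. The rule named all 44 members, the genes of each pair, and of each other list the 3 highest and up to 2 lowest undetected genes. For neuron, glia, fibroblast, mural and endothelial lists only sums or deviations are given, apart from replicate 2 levels of some fibroblast and satellite glia genes. Itgam and Plac8 were named in addition for their replicate 2 levels. Listed symbols not found in the table were Chil3, Ym1, Trac and Mcpt1. Results for some genes that this rule names are not reported here.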

Additional observations from a re-analysis of the deposited data

Results flagged for a closer look

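In 71 sets of 5 library values (member levels, pair ratios and the macrophage core), 3 had a highest or lowest library whose gap to the nearest other was over 71% of the whole range. Chance flags about 1 in 20. Csf3r in replicate 2 was at 1.555 TPM, with the next lowest library at 2.56 TPM. Stab1 in replicate 2 was at 24.1 TPM, with the next at 33.3 TPM. The log2 ratio of Csf1 to Il34 was -0.17 in replicate 1 and at most -0.70 in the other libraries.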

How the results depend on the processing

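The detection count ran from 31 members (10 TPM in every library) to 42, within 1.5 times of 41. The count of members called between libraries with a 1.5-fold range was 22. It was 17 to 31 under other scaling, filter, variance and lower fold limits, and 0 with a limit of 2-fold. It was 0 to 22 when 1 library was left out, with 0 without replicate 2 and 13 without replicate 5. A share of all genes is given only for the main rule, trended variance, no fold limit and the fit without replicate 2. For the other counts such a share was not worked out, so nothing about the members is read from them. The range of the macrophage core deviation was 0.59 to 0.64 under other summaries, and 0.29 (without replicate 2) to 0.63 when 1 library was left out. Of the alternative values for 29 pair ratios, 215 moved by less than 1 SD, 32 moved further but kept their sign and 6 turned. The turned log2 ratios were Csf1/Il34 at 0.59, Folr2/Lyve1 at -0.80 and Stab1/Lyve1 at 1.09 without length normalization, Msr1/Cd36 at -1.39 and Csf1r/Csf2ra at 0.10 with sums of named transcripts, and Csf1r/Csf2ra at 0.011 without replicate 2, within a range of -0.030 (without replicate 3) to 0.011 when 1 library was left out. Sums of named transcripts hold few reads of Msr1, and CPM keeps transcript length; other causes were not tested. Depth limits Marco and Nos2 above all. No paired analysis was possible because all libraries belong to 1 group.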

Other observations

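Outside the 44 genes, 72 of 6895 detected genes with a mean of at least 20 TPM were at or below 80% of the other libraries' mean in replicate 2, where 22 of 27 members at that level were. The lowest of the 72, picked after their values were seen, included further genes of myeloid cells. Ccl6, a chemokine gene, was at 259, 173, 293, 292 and 352 TPM in replicates 1 to 5. The Fc receptor gene Fcgr2a was at 47.9, 33.7, 60.2, 55.5 and 66.9 TPM, above Fcgr1a, Fcgr2b and Fcgr3a in every library. F13a1, a coagulation factor gene of macrophages and platelets, was at 52.4, 35.4, 56.6, 59.6 and 63.1 TPM. Ly96, which encodes the TLR4 partner MD-2, was at 26.1, 13.9, 23.0, 25.6 and 24.8 TPM, and the apolipoprotein gene Apoc1 at 143, 124, 211, 215 and 239 TPM.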
